A study of Mus musculus with 8 samples.

Results

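The 4 members of the MyoD family, Myod1, Myf5, Myog and Myf6, were followed in cultures of satellite cells, which are the resident stem cells of muscle fibres, as the rows carrying those symbols among 39017 genes in a table of exon counts. All 4 had a row and all 4 passed the filter on low counts, which left 15816 genes for testing. Cells cultured with 10 µM sal003, which keeps the translation initiation factor eIF2α phosphorylated, were compared after 4 days with cells cultured with the vehicle DMSO (4 libraries each). Both groups came from diaphragm and abdominal muscle of adult Pax3GFP/+ mice, in which 1 Pax3 allele holds a GFP reporter, and were plated at 7500 cells per 35 mm dish. The labels do not say whether libraries came from separate animals or cultures, so all tests measure the spread between these libraries only.

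The family consists of basic helix-loop-helix transcription factors. Each pairs with an E protein and binds the E-box, CANNTG, in the control regions of muscle genes. Myf5 and Myod1 commit cells to the muscle lineage, Myog is needed for their terminal differentiation, and Myf6, also called Mrf4, is in the mouse the member typical of mature fibres. In adult satellite cells Myf5 is active early, Myod1 marks activated and dividing myoblasts, and Myog marks myoblasts that leave the cell cycle.

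The 4 genes lie on 3 chromosomes of mm10. Myod1 (ENSMUSG00000009471) is on chromosome 7, from 46376474 to 46379099 on the plus strand, and Myog (ENSMUSG00000026459) is on chromosome 1, from 134289989 to 134292548 on the plus strand. Myf5 (ENSMUSG00000000435) and Myf6 (ENSMUSG00000035923) are neighbours on the minus strand of chromosome 10, from 107482908 to 107486134 and from 107492853 to 107494737, with 6718 bases between them. Each has 3 exons in the GENCODE M21 annotation, and no other annotated gene overlaps any of them. The 90 coding bases in which Myod1 is most like the other members are shown. They show how alike the coding sequences are there, and whether counts of 1 member were taken for another was not measured. These bases lie in the first exon of each gene, and capitals mark the 58 bases that all 4 share.
Myod1, chr7:46377051-46377140, plus strand: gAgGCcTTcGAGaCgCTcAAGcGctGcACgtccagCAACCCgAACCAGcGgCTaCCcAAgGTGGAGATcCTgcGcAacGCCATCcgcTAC
Myf5, chr10:107485542-107485631, minus strand: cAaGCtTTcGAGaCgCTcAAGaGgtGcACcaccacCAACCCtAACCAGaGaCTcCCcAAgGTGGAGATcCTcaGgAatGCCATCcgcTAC
Myog, chr1:134290350-134290439, plus strand: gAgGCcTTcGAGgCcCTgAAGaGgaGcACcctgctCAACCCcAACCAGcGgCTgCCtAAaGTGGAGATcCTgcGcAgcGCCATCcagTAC
Myf6, chr10:107494285-107494374, minus strand: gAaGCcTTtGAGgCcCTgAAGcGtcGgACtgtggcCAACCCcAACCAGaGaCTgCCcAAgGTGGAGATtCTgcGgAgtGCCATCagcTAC
Within this window identity between pairs ran from 72.2% (Myf5 and Myog) to 82.2% (Myod1 and Myf5). The longest run of bases shared by the whole transcripts of any pair was 26, between Myod1 and Myf5, and it was 21 or shorter in the 5 other pairs.

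The sal003 libraries had 37248830 to 39378523 counts and the DMSO libraries 32753929 to 40234107. DMSO replicate 2 stood apart from the other libraries, with a Spearman correlation of at most 0.949 with another DMSO library and 14437 genes with a count, against 16561 to 18076 in the others.

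Myog and Myf6 were lower in sal003, while Myod1 and Myf5 did not pass the test. Of the 4 members 2 were thus called, both lower, where 22.7% of all tested genes were called, 10.6% higher and 12.2% lower. A member is called here when its adjusted p from edgeR's quasi-likelihood test, corrected over all tested genes, is below 0.05. These are bulk libraries, so fewer cells expressing a gene and less RNA per cell cannot be told apart.

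Myog had 845, 788, 922 and 926 CPM (counts relative to library size, scaled by TMM) in sal003 replicates 1 to 4, against 2815, 2873, 2487 and 2363 CPM in DMSO replicates 1 to 4. The groups were far apart and did not overlap, which was so at 26.8% of all tested genes. The estimate was a log2 fold change of -1.60 ± 0.09 (SE; edgeR adjusted p = 4.58e-09), a level in sal003 0.330 times that in DMSO. Only 5.84% of the tested genes had a lower estimate.

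Myf6 fell further, from the lowest counts in the family. It had 85, 122, 104 and 122 counts in sal003 replicates 1 to 4, against 439, 458, 548 and 486 counts in DMSO replicates 1 to 4. As CPM these were 2.08, 2.90, 2.61 and 3.14 in sal003 and 14.0, 13.6, 16.1 and 12.8 in DMSO. All 4 sal003 libraries were below all 4 DMSO libraries. Its log2 fold change of -2.40 ± 0.28 (SE) had an adjusted p of 9.84e-06 in edgeR, with a 95% interval of 0.126 to 0.286 for the level in sal003 relative to DMSO, and 2.28% of the tested genes had a lower estimate.

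Myod1 had 832, 867, 946 and 925 CPM in sal003 replicates 1 to 4, against 884, 1020, 827 and 854 CPM in DMSO replicates 1 to 4. The groups overlapped, and both the highest and the lowest library were DMSO libraries. The log2 fold change of -0.0064 had a 95% interval from 0.880 to 1.13 as a ratio of sal003 to DMSO (edgeR adjusted p = 0.975). A change of Myod1 transcript within those bounds could not be seen at this spread.

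Myf5 had 20.2, 21.2, 15.9 and 19.5 CPM in sal003 replicates 1 to 4, against 14.8, 13.3, 17.2 and 13.9 CPM in DMSO replicates 1 to 4. In each group replicate 3 stood towards the other group, and its DMSO library was above its sal003 library. With a log2 fold change of 0.38 ± 0.19 (SE) it did not pass (edgeR adjusted p = 0.190), and the 95% interval of the ratio of sal003 to DMSO ran from 0.982 to 1.72. The spread between libraries relative to the mean was 11.9% in sal003 and 11.4% in DMSO for Myf5, and 5.86% in sal003 and 9.57% in DMSO for Myod1.

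**Figure D1:**
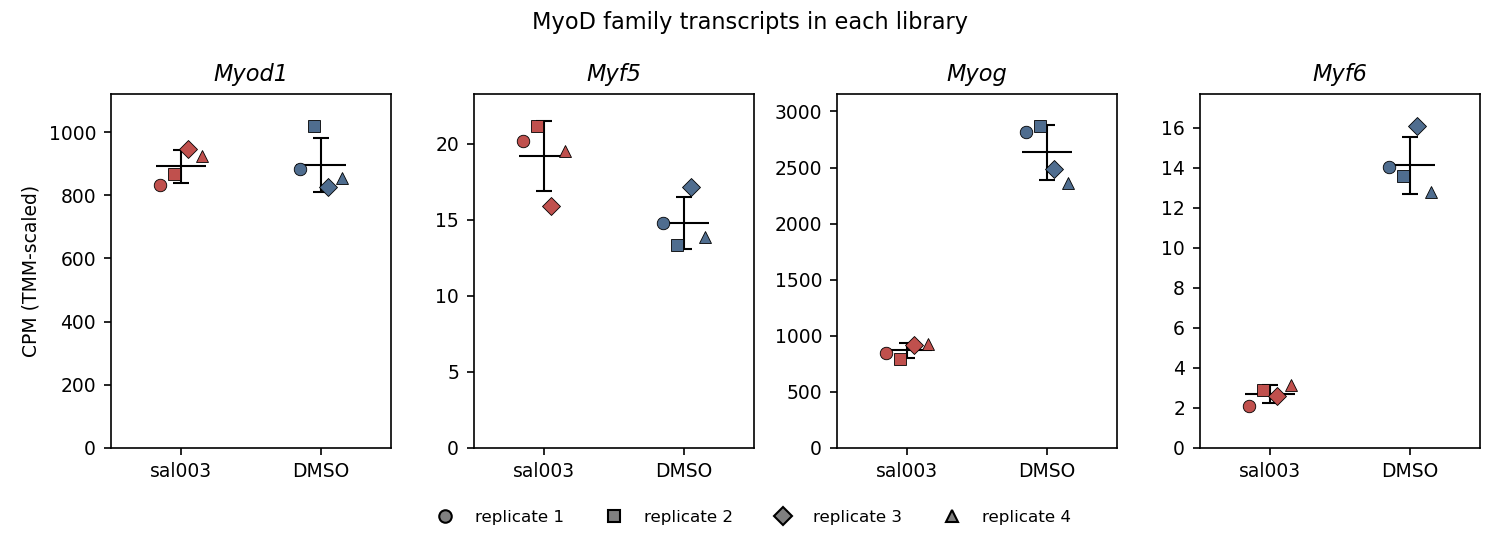
TMM-scaled CPM of Myod1, Myf5, Myog and Myf6 in each of 4 sal003 and 4 DMSO libraries, with axes from 0; symbols mark replicate numbers, bars the mean and SD. Myog lay between 788 and 926 CPM in sal003, against 2363 to 2873 CPM in DMSO, while the libraries of Myod1 overlapped.

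DMSO replicate 2 had the highest Myod1 and Myog values of all 8 libraries. Without it the log2 fold changes were 0.07 for Myod1, 0.34 for Myf5, -1.54 for Myog and -2.40 for Myf6, and the same 2 members were called.

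To compare members with each other, CPM were divided by exon length in kilobases (1861 bases for Myod1, 2083 for Myf5, 1495 for Myog and 1263 for Myf6). On this scale Myog was the most abundant member in both conditions, at 582 ± 44.1 in sal003 and 1762 ± 166 in DMSO (SD, n = 4). Myod1 came next, at 480 ± 28.1 in sal003 and 482 ± 46.1 in DMSO. Per length, Myog ranked number 61 in sal003 and number 20 in DMSO among 15566 tested genes with a known length, and Myod1 number 75 in sal003 and number 84 in DMSO.

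Per length, the order of the 2 scarce members differed between the conditions. In sal003 Myf5 stood above Myf6, at 9.22 ± 1.10 and 2.12 ± 0.36 CPM per kilobase, while in DMSO Myf6 stood above Myf5, at 11.2 ± 1.12 and 7.10 ± 0.809 CPM per kilobase (SD, n = 4). In DMSO this order rests on the length scaling, as Myf6 had 14.1 ± 1.42 CPM and Myf5 14.8 ± 1.69 CPM there before it, with overlapping libraries. Within either condition no neighbours in the order of the members overlapped between libraries. Of the summed level of the family per length, Myog made up 54.2% ± 1.24 in sal003 and 77.9% ± 1.05 in DMSO, and Myod1 44.7% ± 1.17 in sal003 and 21.3% ± 1.08 in DMSO. Myf5 and Myf6 together gave little of the sum, with Myf5 at 0.866% ± 0.148 in sal003 and 0.317% ± 0.0542 in DMSO, and Myf6 at 0.198% ± 0.0317 in sal003 and 0.498% ± 0.0718 in DMSO.

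**Figure D2:**
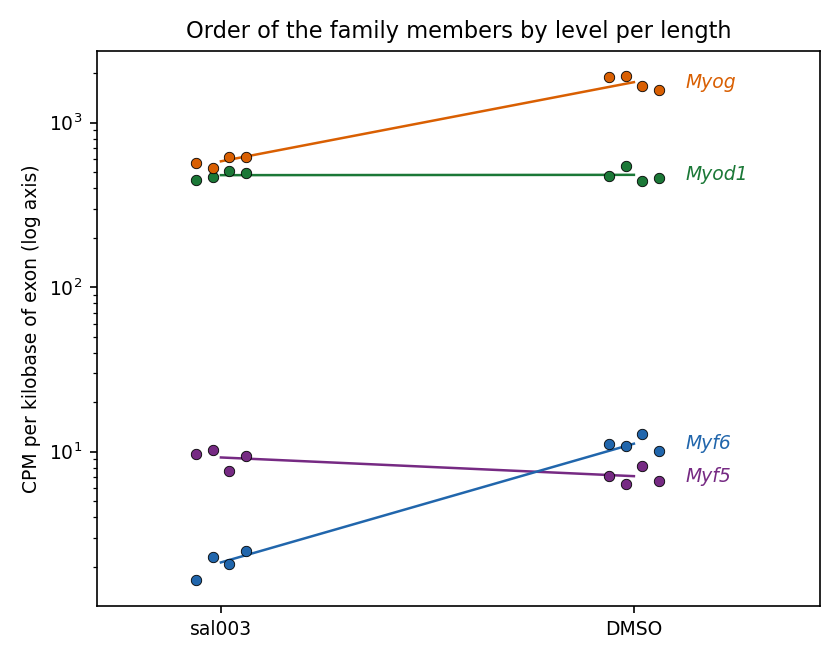
Level of each member in CPM per kilobase of exon, on a log axis, in the 4 sal003 libraries (left) and the 4 DMSO libraries (right); points are libraries and lines join the means. The lines of Myf5 and Myf6 cross, with Myf5 above Myf6 in sal003 and below it in DMSO.

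Whether members moved unequally was tested on ratios, which do not depend on how the libraries are scaled. In a limma fit the log2 ratio of every tested gene to 1 member was compared between conditions, with p-values adjusted over all those genes, and 6 ratios cover every pair. Of these 5 differed between sal003 and DMSO. The 6 ratios are built from the same 4 genes, so they depend on each other and in part restate the calls of Myog and Myf6. In the fits of ratios to Myod1, Myog and Myf5, 19.1%, 75.1% and 24.2% of all genes were called.

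The Myog to Myod1 ratio per length was 1.26, 1.13, 1.21 and 1.25 in sal003 replicates 1 to 4, against 3.96, 3.51, 3.74 and 3.44 in DMSO replicates 1 to 4. It was thus close to even in every sal003 library and well above that in every DMSO library. The change was -1.59 ± 0.09 on the log2 scale (SE; limma adjusted p = 3.26e-08). Of all 6 ratios this one varied least between sal003 libraries relative to its mean.

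The Myf6 to Myf5 ratio per length was 0.170, 0.225, 0.270 and 0.265 in sal003, against 1.57, 1.68, 1.55 and 1.52 in DMSO, for replicates 1 to 4. This was the largest shift between any 2 members, at -2.78 ± 0.38 on the log2 scale (SE; limma adjusted p = 5.73e-08). The Myf5 to Myog ratio was 0.0160 ± 0.00293 in sal003 and 0.00407 ± 0.000692 in DMSO (SD, n = 4), a log2 change of 1.97 ± 0.22 (SE; limma adjusted p = 5.05e-07). The Myf6 to Myod1 ratio was 0.00442 ± 0.000648 in sal003 and 0.0234 ± 0.00383 in DMSO (SD, n = 4), a log2 change of -2.40 ± 0.30 (SE; limma adjusted p = 4.99e-05).

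Myf6 also fell relative to Myog, though this call was the least firm. Their ratio was 0.00366 ± 0.000645 in sal003 and 0.00639 ± 0.000912 in DMSO (SD, n = 4), without overlap, and changed by -0.81 ± 0.31 on the log2 scale (SE; limma adjusted p = 0.0281). The call was lost without sal003 replicate 1 (limma adjusted p = 0.0723), without sal003 replicate 3 (0.0547), without DMSO replicate 3 (0.0988), without DMSO replicate 4 (0.0661) and without the filter on low counts (0.0505). The Myf5 to Myod1 ratio was 0.0194 ± 0.00318 in sal003 and 0.0149 ± 0.00281 in DMSO (SD, n = 4), and the groups overlapped. Its log2 change of 0.38 ± 0.21 did not pass (limma adjusted p = 0.263), with a 95% interval from -0.08 to 0.84. In an exact two-sided permutation test over the libraries, the 5 called ratios each had p = 0.0286, the smallest that 4 against 4 libraries can give, and Myf5 to Myod1 had p = 0.0571. Adjusted over the 6 ratios these were 0.0343 and 0.0571. As the ratios share genes and libraries, these p-values are not separate support for each pair.

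**Figure D3:**
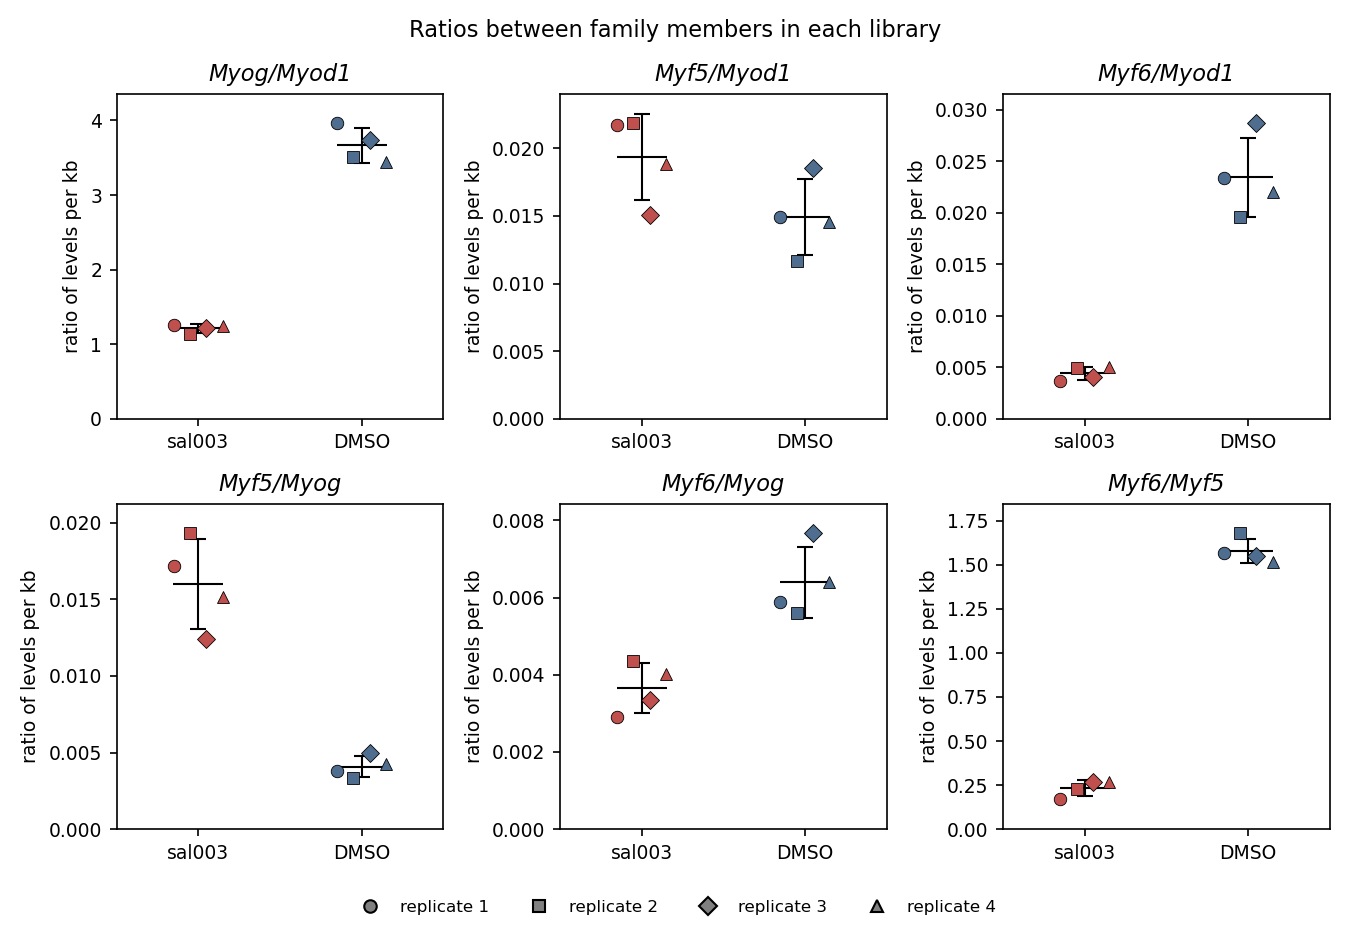
Ratio of the levels per kilobase for each pair of members in each library, sal003 left and DMSO right, with axes from 0; symbols mark replicate numbers, bars the mean and SD. The Myog to Myod1 ratio lay between 1.13 and 1.26 in sal003, against 3.44 to 3.96 in DMSO, and Myf5 to Myod1 is the pair whose groups overlap.

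The start regions of Myog, which was lower in sal003, and of Myf5, which was not called, are shown as those of the members matched in RefSeq, since their ratio changed. Both windows run from 250 bases before to 50 bases after the start that RefSeq gives on GRCm38.p6, the assembly called mm10. Capitals mark E-boxes (CANNTG), the MEF3 site TCAGGTT and the letters TATAAA, each searched on both strands.
Myog, chr1:134289754-134290053, plus strand: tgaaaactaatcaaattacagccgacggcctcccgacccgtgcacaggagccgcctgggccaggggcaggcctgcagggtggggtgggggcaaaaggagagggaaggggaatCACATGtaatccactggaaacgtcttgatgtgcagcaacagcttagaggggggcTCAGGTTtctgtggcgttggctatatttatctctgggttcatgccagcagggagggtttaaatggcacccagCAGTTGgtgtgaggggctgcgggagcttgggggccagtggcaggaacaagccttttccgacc
Myf5, chr10:107486085-107486384, minus strand: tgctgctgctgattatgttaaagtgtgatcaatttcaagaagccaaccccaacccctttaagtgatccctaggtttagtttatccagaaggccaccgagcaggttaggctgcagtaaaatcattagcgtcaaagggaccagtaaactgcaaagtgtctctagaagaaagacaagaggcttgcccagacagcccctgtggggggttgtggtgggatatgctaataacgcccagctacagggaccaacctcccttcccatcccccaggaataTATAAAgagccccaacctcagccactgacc
Counting the RefSeq start as 0, the Myog window held E-boxes at -138 to -133 and -12 to -7 and a MEF3 site at -84 to -78. In GENCODE M21 Myog begins earlier, at 134289989, so the E-box at -12 to -7 lies past that start. The Myf5 window held no E-box and 1 TATAAA, at 20 to 25, which is after the RefSeq start and not before it. Of 32817 promoter windows of this length, 72.3% held an E-box, 4.07% the MEF3 letters and 13.6% TATAAA, and neither CAGCTG (16.3%) nor CACCTG (20.2%) was in the 2 windows shown. A match is a stretch of letters and no measure of binding.

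The listed target genes were lower. Of 25 muscle genes known as targets of Myod1 or Myog, 25 passed the filter, 0 were higher and 25 were lower, where 12.2% of all tested genes were lower, with a median log2 fold change of -1.85, against -0.0034 over all tested genes. The list holds many genes of the contractile apparatus. Summed, the targets had 6708 to 8600 CPM in sal003 libraries, against 27087 to 34026 CPM in DMSO libraries. A list of 12 genes of cycling cells summed to 4184 to 4488 CPM in sal003 libraries, against 1841 to 2366 CPM in DMSO libraries. Much of that sum was Mki67, with a mean of 1866 CPM in sal003 and 882 CPM in DMSO. All 12 were higher, where 10.6% of all tested genes were higher. Both lists were chosen with earlier results of these data known, so these counts are not an independent test. The part of a shift between dividing and differentiating cells in the fall of Myog and its targets was not tested.

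The targets were also set against Myog itself. In the limma fit of ratios to Myog, 12 of the 25 targets fell more than Myog, 9 fell less and 4 were not distinguished from it. That fit called 75.1% of all genes in either direction, since Myog itself fell, so the 9 that fell less are not a result about the targets. For the 12 that fell more, 5.84% of all tested genes had a lower log2 fold change than Myog. That share ranks estimates and is not a share of calls. The list was chosen with earlier results of these data known, so neither number is an independent test. The embryonic light chain Myl4 fell most, to 88.4 ± 10.4 CPM in sal003, against 1039 ± 116 CPM in DMSO (SD, n = 4), and its ratio to Myog changed by a further -1.96 ± 0.13 on the log2 scale (SE; limma adjusted p = 1.83e-09). The light chain Myl1 (-1.18 ± 0.13), the fetal myosin Myh8 (-1.07 ± 0.20), the cardiac actin Actc1 (-1.06 ± 0.13) and the caveolin Cav3 (-0.998 ± 0.203) also fell more than Myog, as log2 changes of the ratio ± SE. So did both genes of myoblast fusion, Tmem8c, which encodes myomaker (-0.72 ± 0.12), and Gm7325, which encodes myomixer (-0.74 ± 0.26).

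Of 6 targets of the neuromuscular junction, 5 fell less than Myog: the acetylcholine receptor subunits Chrna1 (0.70 ± 0.10), Chrnb1 (0.93 ± 0.14) and Chrnd (0.52 ± 0.12), the receptor kinase Musk (0.89 ± 0.13) and the receptor-clustering protein Rapsn (0.63 ± 0.15). A lower log2 fold change than that of Myog was found at 5.84% of all tested genes. Falling less than Myog is thus not particular to these targets. The fetal subunit Chrng was not distinguished from Myog, at -0.20 ± 0.12 (limma adjusted p = 0.146). Itga7, a laminin receptor of myoblasts, had the largest ratio change in this direction, at 1.03 ± 0.11. Its level was 300 ± 24.2 CPM in sal003 and 444 ± 47.8 CPM in DMSO (SD, n = 4). Cdh15, or M-cadherin (0.67 ± 0.11), the fast troponin Tnni2 (0.63 ± 0.16) and the intermediate filament gene Des (0.27 ± 0.10) also fell less than Myog, and the troponin Tnnt3 was not distinguished from it (0.23 ± 0.20). These comparisons with Myog, and the grouping of the targets in them, were added after the values were seen. Over the fits without 1 library, 11 to 14 targets fell more than Myog and 8 to 10 fell less.

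Among the E proteins, the dimerization partners, the 3 genes moved apart. Tcf3, which encodes E12 and E47, was higher, at 203 ± 10.3 CPM in sal003 and 140 ± 9.65 CPM in DMSO (SD, n = 4; log2 fold change 0.53 ± 0.09, edgeR adjusted p = 0.000308). Tcf12, which encodes HEB, had 266 ± 11.8 CPM in sal003 and 264 ± 19.0 CPM in DMSO (edgeR adjusted p = 0.936; 95% interval of the log2 fold change -0.16 to 0.19). Tcf4 was lower, at 151 ± 5.48 CPM in sal003 and 192 ± 25.1 CPM in DMSO (log2 fold change -0.35 ± 0.10, edgeR adjusted p = 0.0189). The Tcf4 call was lost without sal003 replicate 1 (edgeR adjusted p = 0.0616), 2 (0.0609) or 4 (0.0537) and without DMSO replicate 3 (0.0882) or 4 (0.0583).

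Of 14 genes for inhibitors of the family, 12 passed the filter, 3 were higher, 2 were lower and 7 were not called, with a median log2 fold change of 0.21. Thus 41.7% of this list was called, where 22.7% of all tested genes were. Id proteins bind E proteins without binding DNA. Id2 (0.46 ± 0.15, edgeR adjusted p = 0.0373) and Id3 (0.38 ± 0.12, 0.0373) were higher, Id4 was lower (-0.76 ± 0.22, 0.0203), and Id1 was not called (0.14 ± 0.11, 0.449). None of the 3 Id calls was firm. That of Id2 was lost without sal003 replicate 1 (0.0883), 2 (0.0536) or 4 (0.134) and without DMSO replicate 1 (0.106) or 3 (0.105). That of Id3 was lost without any 1 of the sal003 replicates (0.0620, 0.0989, 0.0964 and 0.0651 for replicates 1 to 4) and without DMSO replicate 3 (0.0902). That of Id4 was lost without sal003 replicate 4 (0.0691) or DMSO replicate 4 (0.0949).

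The changes in that list that kept their call without any 1 library went opposite ways. Mdfic, which carries the same inhibitory domain as the MyoD-binding protein Mdfi, had 50.3 ± 7.08 CPM in sal003 and 27.9 ± 5.85 CPM in DMSO (SD, n = 4; log2 fold change 0.85 ± 0.17, edgeR adjusted p = 0.00154). Zeb1, a zinc finger repressor that competes for E-boxes, had 186 ± 15.5 CPM in sal003 and 300.4 ± 27.4 CPM in DMSO (-0.69 ± 0.09, 4.49e-05). Mdfi (-0.24 ± 0.19), Snai1 (0.04 ± 0.22), Bhlhe40 (0.53 ± 0.43), Bhlhe41 (0.13 ± 0.12) and Twist1 (0.29 ± 0.99) were not called. Snai2 (0.42 ± 0.18, edgeR adjusted p = 0.105) was not called either, but passed without sal003 replicate 4 (0.0306). Twist2 and Msc had too few counts to test.

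Mef2a, Mef2c and Mef2d, whose products act with the family on muscle promoters, were lower. Mef2c had 68.1 ± 10.1 CPM in sal003 and 427 ± 89.6 CPM in DMSO (SD, n = 4; log2 fold change -2.65 ± 0.15), Mef2d changed by -0.95 ± 0.09 and Mef2a by -0.79 ± 0.11 (edgeR adjusted p = 1.87e-08, 1.37e-06 and 8.24e-05). Of the 12 coactivators 41.7% were called, against the same 22.7% of all tested genes: 4 were lower, the fourth being the chromatin remodelling subunit Smarcd3 (-0.37 ± 0.09), and 1 was higher, the arginine methyltransferase Prmt5 (0.46 ± 0.11). The acetyltransferases Ep300 and Crebbp and the homeodomain partner Meis1 were among the 7 not called.

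Of 8 corepressors 3 were higher, 2 were lower and 3 were not called, a share of 62.5% called against 22.7% of all tested genes. The deacetylase gene Hdac9 fell to 2.61 to 3.35 CPM in sal003 libraries, against 18.5 to 29.4 CPM in DMSO libraries (log2 fold change -2.94 ± 0.24), and Hdac5 fell by 0.44 on the log2 scale. The histone methyltransferases Ezh2 (0.91 ± 0.16) and Suv39h1 (0.69 ± 0.16) and the deacetylase Sirt1 (0.54 ± 0.12) rose. Of 11 regulators upstream of the family that could be tested, Pax7 was the only one higher (0.43 ± 0.10, edgeR adjusted p = 0.00539) and 4 were lower, which makes 45.5% called. Among those, Foxo3 (-0.75 ± 0.12) and Eya4 (-0.49 ± 0.10) fell, and so did Lbx1 (-0.46 ± 0.15, edgeR adjusted p = 0.0385), a call lost without sal003 replicate 1 (0.113), 3 (0.117) or 4 (0.132) and without DMSO replicate 1 (0.0960), 2 (0.0545) or 3 (0.0687). Six4, whose product binds MEF3 sites, was at -0.09 ± 0.09 and was not called.

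**Figure D4:**
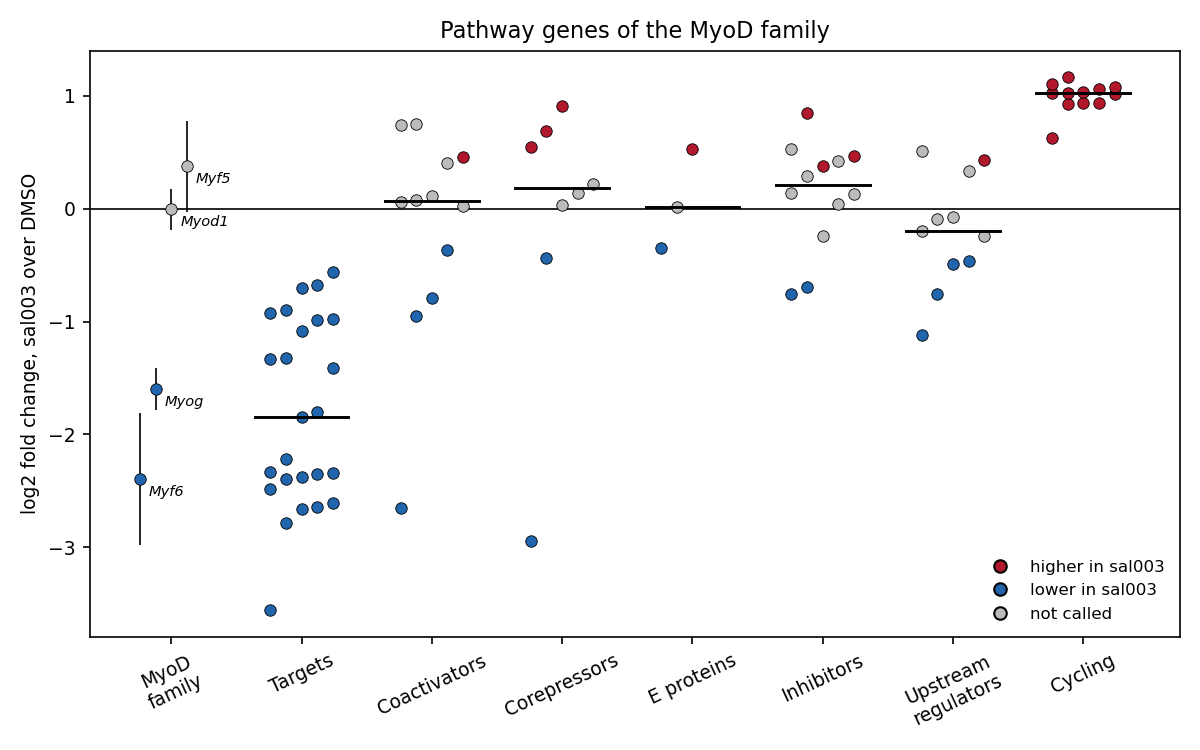
Log2 fold change, sal003 over DMSO, of the 4 family members (with 95% intervals) and of each tested gene in 7 lists; horizontal bars are list medians and colours give the edgeR call. All 25 targets lie below 0 and all 12 cycling genes above it, while the partner and inhibitor lists straddle 0.

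Markers of the labelled cell type were present. Pax7 had 97.2 ± 2.54 CPM in sal003 and 72.1 ± 6.74 CPM in DMSO, and Cdh15 had 120 ± 13.1 CPM in sal003 and 227 ± 20.3 CPM in DMSO (SD, n = 4). Calcr, a marker of quiescent satellite cells, was near 0 at 0.142 ± 0.283 CPM in sal003 and 0.118 ± 0.237 CPM in DMSO. Its counts came from replicate 4 of each group only (22 in sal003 and 18 in DMSO). Spry1, also listed, had 22.4 ± 4.48 CPM in sal003 and 36.2 ± 3.49 CPM in DMSO. Of 10 listed markers 9 were tested, and 1 was higher, 4 were lower and 4 were not called. Thus 55.6% were called, where 22.7% of all tested genes were. Markers of other cells were scarce. Summed over 6 fibro-adipogenic genes the level was 1.85 to 3.31 CPM in sal003 and 0.511 to 6.60 CPM in DMSO, over 5 endothelial genes 2.75 to 6.04 CPM in sal003 and 0.890 to 4.29 CPM in DMSO, over 4 immune genes 2.32 to 5.10 CPM in sal003 and 2.17 to 6.05 CPM in DMSO, and over 3 glial genes 2.21 to 4.71 CPM in sal003 and 2.20 to 3.16 CPM in DMSO. The defining genes Dcn, Lum, Emcn and Ptprc had no count in any library. The 5 genes of smooth muscle and pericytes summed to 142 to 171 CPM in sal003 and 184 to 248 CPM in DMSO, nearly all of it Cspg4, whose call as lower (-0.40 ± 0.11, edgeR adjusted p = 0.0182) was lost without sal003 replicate 1 (0.0692) or 2 (0.0677), and their part in the fall of Myog and Myf6 was not tested.

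Genes with the pattern most like each member were sought among 7345 named genes at or above the median level. Likeness was the root mean square difference over the 8 libraries of log2 CPM, each gene being centred on its own mean. The 3 genes nearest to Myog were Ryr1, the calcium release channel of skeletal muscle, at a distance of 0.0660, the cytoskeletal adaptor Obsl1 at 0.0719 and the neuregulin receptor Erbb3 at 0.0744, where the median distance of all those genes from Myog was 0.851. Nearest to Myf6 were Pkhd1 (0.0866), the slow troponin Tnni1 (0.131) and the fast calcium pump Atp2a1 (0.136), with a median of 1.25. Nearest to Myod1 were Rab31 (0.0453), Pcnx (0.0506) and Trak1 (0.0508), and nearest to Myf5 were Tgfb1 (0.0735), Mier1 (0.0841) and Paxbp1 (0.0851). Without DMSO replicate 2, 4 of these 12 names remained among the 3 nearest, namely Rab31, Ryr1, Pkhd1 and Tnni1.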

How the data were processed

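RNA was measured in 8 samples, 4 given sal003 and 4 given DMSO. Per the labels' protocols, ribosomal and mitochondrial RNA was removed and a stranded SMARTer kit was used. For the dose, 10 µM is used here, although the treatment protocol writes it in millimolar. Exon counts, not normalized, were deposited by the authors as a single table. The build mm10 and the tools featureCounts 1.4.4, STAR 2.3.0e and Trimmomatic 0.32 are named per the submitters' processing notes. How strand and multiply aligned reads were handled is not given in the sources used here. Of the counts from 1 to 20, 75.6% to 83.4% per library were even, so halved counts were one alternative. No molecular identifiers are described, so depth is a number of counts and not of molecules.

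In R 4.3.3 genes were kept with filterByExpr (minimum count 10, minimum total 15), scaled by TMM and tested with edgeR 4.0.16 (robust quasi-likelihood, condition as the only term, two-sided, Benjamini-Hochberg over all tested genes, threshold 0.05). The SE is the log2 fold change divided by the square root of F. Ratios were fitted with limma 3.58.1 (trend, robust) on log2 CPM with a prior count of 0.5. No library was treated as a duplicate, the lowest chi-square per degree of freedom between replicates being 24.3. Gene positions and lengths come from GENCODE M21, in which 96.4% of the identifiers were found, coding sequences from its transcripts and promoters from RefSeq (GRCm38.p6), where Myog and Myf5 were matched. Both fits were also run on simulated counts, the ratio fit only with an unchanged Myod1 as reference, and the outcome is not reported here.

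The members and gene lists were chosen with earlier results of these data known. Planned for naming were the 4 members, every E protein and inhibitor tested, and the 3 genes most like each member. Of the other lists the plan was up to 6 called genes per direction in order of p. Genes named beyond this were chosen after their values were seen. Some list genes within this plan, among them the cycling genes other than Mki67, are counted but not reported by name here. Alternatives were DESeq2 size factors, upper-quartile scaling, no filter, a replicate block, DESeq2 1.42.0, limma-voom with quality weights, halved counts, a prior count of 2, each library left out, and the longest transcript as length.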

Additional observations from a re-analysis of the deposited data

Results flagged for a closer look

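Among 114 groups of 4 libraries examined (the members, their ratios and 47 pathway genes in each condition), 7 held a library far from the other 3 by Dixon's criterion, where chance gives about 5%. No member and no ratio was among them. In sal003, Bhlhe41 stood at 70.3 CPM in replicate 3 (56.4 to 57.9 in the others), Hdac5 at 128 CPM in replicate 1 (115.8 to 117), Id4 at 8.96 CPM in replicate 4 (13.4 to 14.0), Tcf12 at 249 CPM in replicate 2 (272.2 to 272.4) and Zeb1 at 209 CPM in replicate 4 (176 to 180.1). In DMSO, Foxo3 stood at 112 CPM (81.3 to 81.7) and Spry1 at 41.4 CPM (34.1 to 34.9), both in replicate 2, the library that also stood apart over all genes.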

How the results depend on the processing

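The calls of Myog and Myf6 and the absence of a call for Myf5 and Myod1 held under all 15 alternatives run for each, as did 5 of the 6 ratio results under 13 each. The log2 fold change of Myog ran from -1.63 to -1.54 over the fits without 1 library, that of Myf6 from -2.47 to -2.29 and that of Myf5 from 0.33 to 0.47. The Myod1 estimate changed sign without a call, to 0.0053 with no filter and 0.052 with limma-voom, and ran from -0.033 to 0.073 without 1 library. The Myf6 to Myog ratio lost its call with no filter (-0.81, limma adjusted p = 0.0505) and with the replicate block (-0.81, 0.0532), and its value without 1 library ran from -0.89 to -0.70; the cause was not tested. Uncalled pathway genes that changed sign were Tcf12 (-0.030 with limma-voom, -0.020 to 0.056 without 1 library), Snai1 (-0.064 to 0.302) and Twist1 (-0.132 to 0.943). Genes called numbered 1660 higher and 1770 lower with the replicate block, 1671 and 1923 without it. Same-numbered libraries did not deviate together (correlations from -0.0082 to 0.0308), so the numbers were not taken to pair them. Without 1 library, 1270 to 2219 genes were higher and 1612 to 2252 lower. The longest transcript has the same length as the exons of each member, so that alternative could not change their order. Of the 12 most alike genes, 4 were kept without DMSO replicate 2. Counts of lists with 1 to 3 called genes moved most, the E proteins losing their 1 lower gene in 5 fits without 1 library. Depth limits Myf6 above all, which had 85 to 122 counts in sal003 libraries.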

Other observations

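The nearest protein-coding neighbours of the members were chosen by position after the members' values were seen. Ppfia4, which encodes a liprin and lies 4234 bases beyond Myog on the opposite strand, was lower, at 128 ± 20.96 CPM in sal003 and 440.2 ± 35.1 CPM in DMSO (SD, n = 4; log2 fold change -1.78 ± 0.12, edgeR adjusted p = 2.16e-08). Adora1, an adenosine receptor gene 54557 bases to the other side of Myog, was lower too (-0.68 ± 0.19 on the log2 scale, edgeR adjusted p = 0.0165). Otog, 65039 bases from Myod1, was lower (-0.997 ± 0.133 on the log2 scale, edgeR adjusted p = 4.25e-05), while the potassium channel gene Kcnc1, 17397 bases to the other side of Myod1, was not called (-0.24 ± 0.25, edgeR adjusted p = 0.596). On chromosome 10, Myf6 fell and its neighbour Myf5 was not called. The genes flanking that pair, Ptprq (1.35 ± 0.819 CPM in sal003 and 0.962 ± 0.931 CPM in DMSO) and Lin7a (0.762 ± 0.543 CPM in sal003 and 0.585 ± 0.511 CPM in DMSO; SD, n = 4), were scarcely detected.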
